A study of Mus musculus with 8 samples.

Results

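The genes described here encode the conjugating enzymes of the mouse kidney: 15 UDP-glucuronosyltransferases (Ugt genes), 21 glutathione transferases (the Gst genes and the membrane-bound Mgst genes) and 3 sulfotransferases (Sult genes). They are 39 genes of the 49315 in the deposited count tables. They were taken as a list of symbols, matched to Ensembl gene identifiers through the GENCODE M21 annotation. This list, and the gene and marker lists used below, were chosen with earlier results of these data known. Messenger RNA was sequenced from 8 kidneys. The labels name 4 of them as controls and 4 as conditional knockouts of Kdm1a, which encodes LSD1, a demethylase of histone H3. A conditional allele is removed by a recombinase in the cells that make it, and the recombinase, its driver, and the age, strain and sex of the animals are not given in the sources used here. The question of the series is which genes change when Kdm1a is lost in the kidney, and the comparison here is the abundance of each conjugating enzyme transcript in knockout against control kidneys. The labels number the kidneys within each group but do not say that they came from separate litters or days, so the tests below measure the spread between these 8 samples.

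Conjugation joins a water-soluble group to a drug, hormone, bile pigment or reactive lipid so that it can be excreted. UDP-glucuronosyltransferases sit in the endoplasmic reticulum and add glucuronic acid from UDP-glucuronic acid, glutathione transferases add the tripeptide glutathione to electrophiles, and sulfotransferases add sulfate from the activated donor PAPS. In the kidney much of this chemistry takes place in the proximal tubule, where glutathione conjugates are also trimmed at the brush border and turned into mercapturic acids. The Ugt1a genes are a textbook case of shared exons: each has its own promoter and first exon, and all are spliced to the same downstream exons. In these tables the cluster lay at chr1:88055388-88220002 on the plus strand (GRCm38) and held 9 Ugt1a genes, 7 of them described here, over 164.6 kb.

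The upstream sequences of Ugt1a10, Ugt1a9 and Ugt1a2 are printed because the Ugt1a genes share their downstream exons and differ in the stretch before the first exon, and because these are the Ugt1a genes that were called lower in the knockouts. Each is 1 run from 250 bases before the RefSeq start site toward that site, read 5′ to 3′ on the plus strand, from the RefSeq promoter table of GRCm38.p6. The run was ended before any exon of the deposited tables. Capitals mark the longest run of letters that the stretches of Ugt1a10 and Ugt1a9 have in common.
Ugt1a10, plus strand, chr1:88055161-88055387: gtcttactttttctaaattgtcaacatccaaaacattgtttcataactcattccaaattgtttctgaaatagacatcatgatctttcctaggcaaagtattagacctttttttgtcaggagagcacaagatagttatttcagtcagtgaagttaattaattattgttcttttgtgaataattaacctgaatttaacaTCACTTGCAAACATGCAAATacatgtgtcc
Ugt1a9, plus strand, chr1:88070529-88070778: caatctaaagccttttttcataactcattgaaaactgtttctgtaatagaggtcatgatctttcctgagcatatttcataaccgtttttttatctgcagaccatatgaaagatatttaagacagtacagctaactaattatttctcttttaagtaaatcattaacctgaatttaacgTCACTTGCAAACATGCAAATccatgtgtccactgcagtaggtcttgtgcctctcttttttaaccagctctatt
Ugt1a2, plus strand, chr1:88200361-88200600: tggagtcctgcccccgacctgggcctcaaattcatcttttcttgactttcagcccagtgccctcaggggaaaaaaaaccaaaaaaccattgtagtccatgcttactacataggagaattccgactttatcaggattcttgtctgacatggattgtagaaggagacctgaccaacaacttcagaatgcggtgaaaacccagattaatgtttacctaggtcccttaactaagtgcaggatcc

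The run in capitals is 20 bases long. Stretches of the Ugt1a genes that were not called were not compared, so the run is not shown to be particular to the called genes. The longest run in common with the Ugt1a2 stretch was 6 bases for Ugt1a10 and 7 bases for Ugt1a9. Motifs were searched on both strands in the 250 bases before each start site. Among the 39 genes, 35 had at least 1 promoter in the table (Gstt2, Ugt1a6b, Gsta4 and Ugt3a2 had none). GCGTG, the core of the xenobiotic response element, was found in 7 of the 35 genes. By promoter, it was found in 8 of the 43 of these genes and in 28.2% of the 32851 of the table. TGACNNNGC, the core of the antioxidant response element, was found in 4 of the 35 genes (Gsta3, Gstm5, Gstm7 and Mgst1). By promoter, that is 4 of the 43 of these genes, beside 10.2% of all promoters. The 9-letter HNF4 motif CAAAGTCCA was found in 0 of the 43 and in 0.4% of all promoters. These matches describe the letters and were not tested as binding sites.

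Each library held between 19524945 and 28544511 counts, so 1 count stood for 0.0350 to 0.0512 per 1000000 raw counts. Levels below are counts per 1000000 (CPM) with library sizes scaled by trimmed mean of M values, so 1 count differs slightly there. Kdm1a itself had 109.8, 112, 119.8 and 109.7 CPM in controls 1 to 4 and 94.0, 95.3, 90.9 and 94.2 CPM in knockouts 1 to 4, a log2 fold change of -0.27 (SE 0.05, edgeR adjusted p = 0.0194, up to 0.0765 with 1 library left out). The sources do not say which exons were deleted, and this count covers the whole gene. Some libraries stood apart in ways that the genotype does not account for. Y-linked transcripts were high in controls 1, 3 and 4 and knockouts 2 and 3, and low in control 2 and knockouts 1 and 4. Control 2 and knockout 3 lay side by side on the first principal component, which held 62.7% of the variance. The summed level of 12 adrenal markers was 2770 CPM in knockout 1, 383 in knockout 4 and 154 in control 4, and between 17.7 and 24.7 CPM in the other 5 libraries. That of 12 ovary and germline markers was 26.3 CPM in control 2 and between 2.25 and 4.82 CPM in every other library. The summed level of 12 proximal tubule markers was 1439, 489, 1112 and 2099 CPM in controls 1 to 4 and 147, 74.8, 369 and 177 CPM in knockouts 1 to 4. All 12 of these markers were lower in the knockouts (edgeR adjusted p under 0.05, median log2 fold change -3.01) and none was at 0. Liver markers, which many of these enzymes accompany in that organ, summed to between 23.8 and 96.6 CPM in the controls but between 13.2 and 168 CPM in the knockouts, with 1 of 6 tested called lower and 1 called higher. In whole kidney, fewer cells of a type and less RNA per cell cannot be told apart, and the part of the proximal tubule in the results below was not tested.

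All 39 conjugating enzyme genes had a count in some library and 32 had a count in every library. Of these genes, 35 passed the filter on low counts and were tested, among 18485 genes in all. A gene is termed called where the adjusted p of edgeR's quasi-likelihood test was under 0.05 over all genes tested. There were 12 called genes, 9 lower and 3 higher in the knockouts. That is 34.3% of the 35, beside 14.9% of all genes tested (6.61% higher and 8.27% lower). Because the list was chosen with earlier results known, these shares describe it and are no test of it. Called genes at least 2-fold lower made up 8 of the 35 and 2.95% of all genes. The 4 knockout libraries lay wholly on one side of the 4 controls for 12 of the 35 genes, all of them called, and for 18.9% of all genes. Where 4 values of a group are listed below, they are replicates 1 to 4 in that order. The median log2 fold change was -0.55 over the 35 genes and 0.00 over all genes. By family, the median was -2.09 over 12 tested Ugt genes, -0.25 over 20 tested glutathione transferase genes and -2.86 over 3 Sult genes. Among the 12 called genes, Ugt1a9 and Ugt1a10 were the ones called in every one of the 19 alternative settings.

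**Figure D1:**
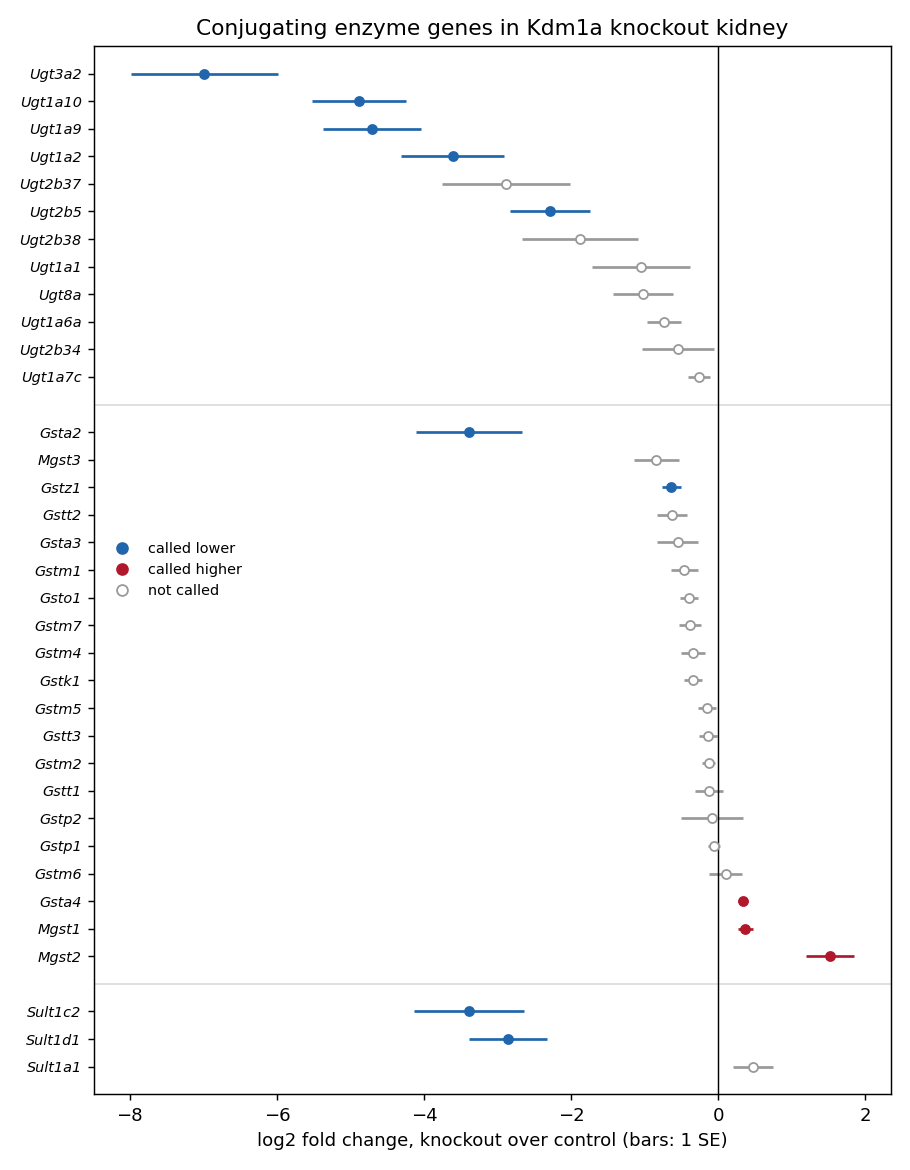
Log2 fold change of each tested gene, knockout over control, from edgeR's quasi-likelihood fit, in 3 blocks for Ugt, Gst with Mgst, and Sult genes. Points are estimates and bars are 1 SE, filled points are called genes (adjusted p under 0.05), and the Ugt block reaches from -6.99 to -0.26 while most of the Gst block lies close to 0.

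The glucuronosyltransferase genes included the 4 lowest log2 fold changes of the 35 tested genes. All 12 tested Ugt genes had a log2 fold change below 0, and 5 were called, all lower (41.7%, beside 8.27% of all genes tested). Ugt3a2 (chr15:9335550-9370955, plus strand) belongs to a small family that uses sugar donors other than UDP-glucuronic acid. It had 9.71, 1.34, 12.3 and 19.2 CPM in controls 1 to 4 and 0, 0, 0.208 and 0.0719 CPM in knockouts 1 to 4. The knockouts held 8 counts in all against 993 in the controls, and the groups did not overlap. The log2 fold change was -6.99 (SE 1.0, edgeR adjusted p = 0.0104), with an adjusted p of 0.0518 without knockout 4. Its neighbour Ugt3a1 (chr15:9273319-9315032) did not pass the filter on low counts, which asks for enough counts in enough libraries, and was not tested. It had 94 counts summed over the controls but 6 over the knockouts, and 0.0927 CPM in control 2. Without that filter its log2 fold change was -4.02 (SE 0.95, edgeR adjusted p = 0.0263). In the alternative settings where Ugt3a1 was fitted, the edgeR adjusted p ran from 0.00258 to 0.0983. Of the 50-base windows of the Ugt3a1 exons, 9.4% also occur in another gene.

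Of the 6 tested genes of the Ugt1a cluster, Ugt1a2, Ugt1a9 and Ugt1a10 were called lower. Ugt1a2, the most abundant Ugt gene per exon length, had 44.1, 6.03, 18.2 and 50.3 CPM in the controls against 2.11, 0.753, 4.33 and 2.30 CPM in the knockouts. Its highest knockout stayed below its lowest control, which was control 2, and the log2 fold change was -3.61 (SE 0.70, edgeR adjusted p = 0.0188). Without control 1 or knockout 1, 2 or 4 the adjusted p was 0.0506 to 0.0698. Ugt1a10 had 8.69, 2.23, 6.05 and 13.7 CPM in the controls against 0.211, 0.0502, 0.311 and 0.396 CPM in the knockouts. That is 26 counts over the 4 knockouts against 712 over the controls, a log2 fold change of -4.89 (SE 0.64, edgeR adjusted p = 0.00815). Ugt1a9 had 2.01, 0.556, 3.39 and 4.0 CPM in the controls against 0.127, 0.10, 0.0692 and 0.0719 CPM in the knockouts. Its knockouts were all below its lowest control, with 9 counts over the knockouts against 233 over the controls. The log2 fold change was -4.71 (SE 0.67, edgeR adjusted p = 0.0102).

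The other Ugt1a genes were not called. Ugt1a1, the bilirubin-conjugating form, was scarce, at 0.977 ± 0.531 CPM in the controls against 0.452 ± 0.331 CPM in the knockouts (SD, n = 4 each). Its log2 fold change of -1.05 (SE 0.67) had an edgeR adjusted p of 0.286. Ugt1a6a, a form that conjugates small phenols, had 2.74 ± 0.423 and 1.64 ± 0.428 CPM (SD, n = 4 each) and a log2 fold change of -0.74 (SE 0.23, edgeR adjusted p = 0.0573). DESeq2 and limma-voom both called Ugt1a6a lower. For Ugt1a7c the log2 fold change was -0.26 (SE 0.15, edgeR adjusted p = 0.250). Ugt1a6b had 10 control and 3 knockout counts and was not tested. Differences between members of the cluster were not tested. Each of the 7 genes shares between 50.3% and 82.7% of its exon bases with other annotated genes, and 1311 exon bases are common to all 9 genes of the cluster. How reads from those exons were assigned is not given in the sources used here. Per base of exon found in no other gene, the control level was 33.0 RPKM (CPM per 1000 exon bases) for Ugt1a2, 9.48 for Ugt1a10 and 2.83 for Ugt1a9.

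**Figure D2:**
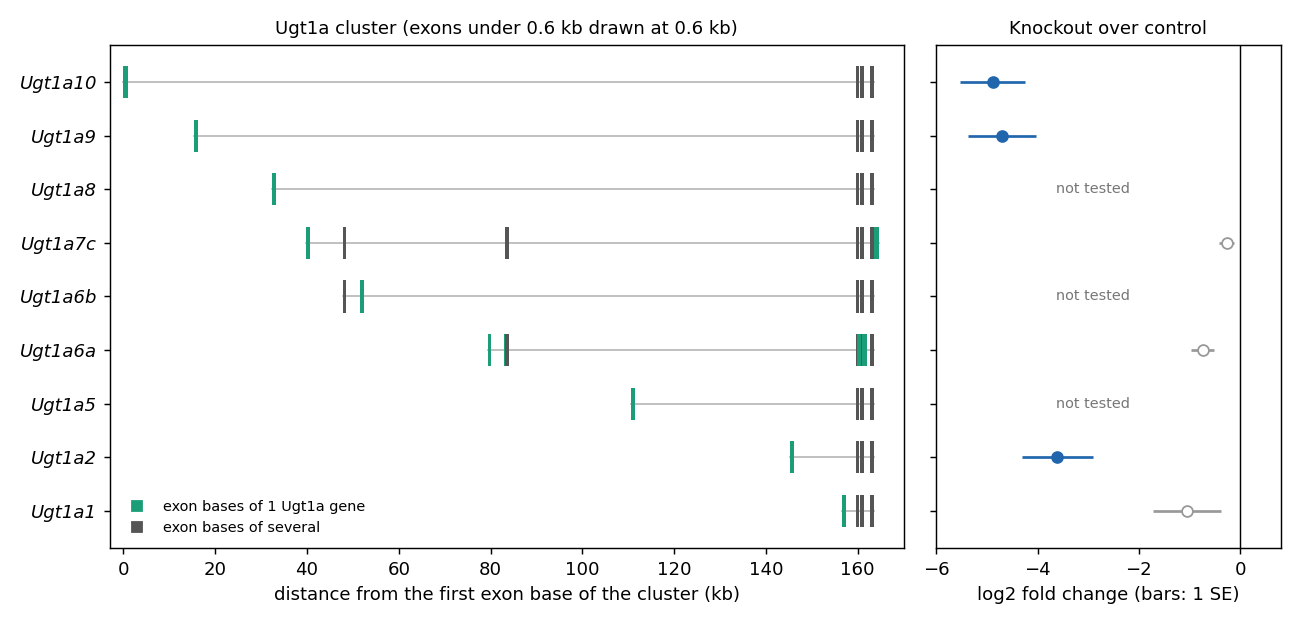
The Ugt1a cluster. Left: exons of each gene along the cluster, in kb from its first exon base, green for bases that belong to 1 Ugt1a gene and grey for bases that belong to several. Right: log2 fold change, knockout over control, with 1 SE; called genes are filled, and Ugt1a10, Ugt1a9 and Ugt1a2 lie between -4.89 and -3.61 while Ugt1a1, Ugt1a6a and Ugt1a7c lie between -1.05 and -0.26.

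Genes of the Ugt2b cluster on chromosome 5 encode forms that conjugate steroids and many drugs. Ugt2b5 had 1.97, 2.04, 2.54 and 4.36 CPM in the controls against 0.845, 0.0502, 0.796 and 0.468 CPM in the knockouts. The groups did not overlap, and the log2 fold change was -2.29 (SE 0.54, edgeR adjusted p = 0.0287). Without control 1, 3 or 4 or knockout 1 or 4 the adjusted p was 0.0606 to 0.0923, and 0.0606 in the libraries with high Y-linked transcripts alone. Ugt2b37 was more abundant and more variable, with 7.33, 1.62, 5.21 and 15.2 CPM in the controls against 0.802, 0, 2.25 and 0.791 CPM in the knockouts. Knockout 3 exceeded control 2, and the log2 fold change of -2.88 (SE 0.87) was not called (edgeR adjusted p = 0.0542). Ugt2b38 and Ugt2b34 had log2 fold changes of -1.88 (adjusted p = 0.127) and -0.55 (adjusted p = 0.440). Ugt2b35 had 6 control and 3 knockout counts and was not tested. Of the 50-base windows of the exons, 41.7% of those of Ugt2b5, 37.4% of those of Ugt2b38 and 18.3% of those of Ugt2b37 occur in another gene, so the split of counts among these paralogs is uncertain.

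Ugt8a makes galactosylceramide, a membrane lipid, and is no drug-conjugating enzyme. It had 13.9, 7.70, 17.4 and 21.7 CPM in the controls against 4.94, 5.27, 13.9 and 5.65 CPM in the knockouts. Knockout 3 stood well above the other 3 knockouts and inside the control range. The log2 fold change was -1.02 (SE 0.41, edgeR adjusted p = 0.111).

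Glutathione transferases made up most of the summed CPM of the 39 genes. Of 20 tested genes, 5 were called (25.0%, beside 14.9% of all genes tested). Gsta2 and Gstz1 were lower, and Gsta4, Mgst1 and Mgst2 higher. Gsta2 (chr9:78331018-78355788, minus strand), an alpha class enzyme that also reduces lipid hydroperoxides, had 70.1, 19.1, 45.2 and 98.3 CPM in the controls. In the knockouts it had 2.87, 1.10, 13.4 and 4.28 CPM. Control 2 was the lowest control and knockout 3 the highest knockout, without overlap, and the log2 fold change was -3.39 (SE 0.72, edgeR adjusted p = 0.0223). Without control 1, 3 or 4 or knockout 1, 2 or 4 the adjusted p was 0.0528 to 0.0788. Of its 50-base windows, 64.2% occur in another gene (Gsta1, Gm10639, Gm3776, Gm8074 or Gm2693). Gsta1, 89.7% of whose windows are so shared, had 73 control and 17 knockout counts and was not tested.

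Gsta4 (chr9:78182774-78209349, plus strand) lies close to Gsta2 and moved the other way. It encodes the alpha class enzyme best known for conjugating 4-hydroxynonenal, a product of lipid peroxidation. Per exon length it was among the most abundant of the 39 genes, at 87.5 RPKM in the controls. It had 119.5, 102, 108 and 114 CPM in the controls against 131, 138, 145 and 145 CPM in the knockouts. Every knockout was above every control, by a log2 fold change of 0.34 (SE 0.07, edgeR adjusted p = 0.0194). Without control 3, knockout 2 or knockout 4 the adjusted p was 0.0530 to 0.0687. None of its 50-base windows occurs in another gene. Gsta3, on chromosome 1, had a log2 fold change of -0.55 (SE 0.28, edgeR adjusted p = 0.191).

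Gstz1, the maleylacetoacetate isomerase of tyrosine breakdown, had 74.8, 51.5, 60.2 and 78.6 CPM in the controls against 42.5, 40.4, 43.4 and 43.9 CPM in the knockouts. The knockouts lay close together below all controls, at a log2 fold change of -0.64 (SE 0.13, edgeR adjusted p = 0.0192). Without control 1 or 3 or knockout 1, 2 or 4 the adjusted p was 0.0513 to 0.0658. A share of 8.3% of its exon bases overlaps Pomt2.

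Of the 3 microsomal enzymes, Mgst1 and Mgst2 were called higher. Mgst1, a membrane-bound transferase and peroxidase, had 84.1, 91.3, 87.3 and 81.1 CPM in the controls against 135, 106, 97.7 and 105 CPM in the knockouts. The groups did not overlap and the log2 fold change was 0.37 (SE 0.10, edgeR adjusted p = 0.0409). Knockout 1, the highest for Mgst1, was also the library with 2770 CPM of adrenal markers. Without knockout 1 the log2 fold change was 0.26 (adjusted p = 0.0660), and with the adrenal level as a covariate it was 0.28 (adjusted p = 0.109). Without control 1, 3 or 4 or knockout 1, 2 or 4 the adjusted p was 0.0660 to 0.111, and 0.0516 in the libraries with high Y-linked transcripts alone. Mgst2, a relative of leukotriene C4 synthase, was scarce, with 1.48, 1.48, 1.09 and 0.545 CPM in the controls against 2.79, 4.52, 2.60 and 3.38 CPM in the knockouts. All knockouts exceeded all controls, at a log2 fold change of 1.52 (SE 0.33, edgeR adjusted p = 0.0226). Without control 1 or 3 or knockout 1, 2 or 4 the adjusted p was 0.0539 to 0.0730. Beside these rises, 6 leukocyte markers summed to 42.3 to 59.8 CPM in the controls against 72.7 to 85.8 CPM in the knockouts, with 2 of 5 tested called higher. The 6 fibroblast markers summed to 2590 to 3667 CPM and 2956 to 5141 CPM, with 1 of 6 called higher, no marker of either list was at 0 in all libraries, and their part in the rises was not tested. Mgst3 had a log2 fold change of -0.84 (SE 0.31) and was not called (edgeR adjusted p = 0.0926).

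Of the 11 genes of the mu, pi and theta classes, edgeR called 0, beside 14.9% of all genes tested. Gstp1, the main pi class enzyme, had 66.5, 62.6, 66.8 and 72.6 CPM in the controls against 57.3, 68.9, 68.0 and 62.7 CPM in the knockouts. These ranges overlapped, with knockout 1 below every control and control 4 above every knockout, at a log2 fold change of -0.06 (SE 0.08, edgeR adjusted p = 0.588). Gstm2, a mu class enzyme, had 95.9, 98.8, 113 and 84.4 CPM in the controls against 90.6, 87.2, 94.3 and 86.5 CPM in the knockouts, at a log2 fold change of -0.13 (SE 0.09, edgeR adjusted p = 0.314). The log2 fold changes of the 6 Gstm genes ran from -0.46 (Gstm1) to 0.10 (Gstm6). Of these 6, 2 had an unadjusted p under 0.05, beside 6489 of the 18485 genes tested. DESeq2 called 0 of the 6 and limma-voom called 2, while limma-voom called 44.9% of all genes. Of the 2 Gstp genes, 0 had an unadjusted p under 0.05 and 0 were called by DESeq2 or limma-voom. Among the 3 Gstt genes, Gstt2 had a log2 fold change of -0.63 (SE 0.20, edgeR adjusted p = 0.0650), and it had an unadjusted p under 0.05 and was called by both other tools. Gstt1, Gstt3 and Gstp2 had log2 fold changes of -0.13, -0.14 and -0.09. The same measure was -0.40 (SE 0.12, adjusted p = 0.0552) for Gsto1, an omega class enzyme with thioltransferase activity, and -0.34 (SE 0.12, adjusted p = 0.0730) for Gstk1, the kappa class enzyme of mitochondria and peroxisomes. Of the 50-base windows, 62.3% of those of Gstp1 and 72.6% of those of Gstp2 occur in another gene.

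**Figure D3:**
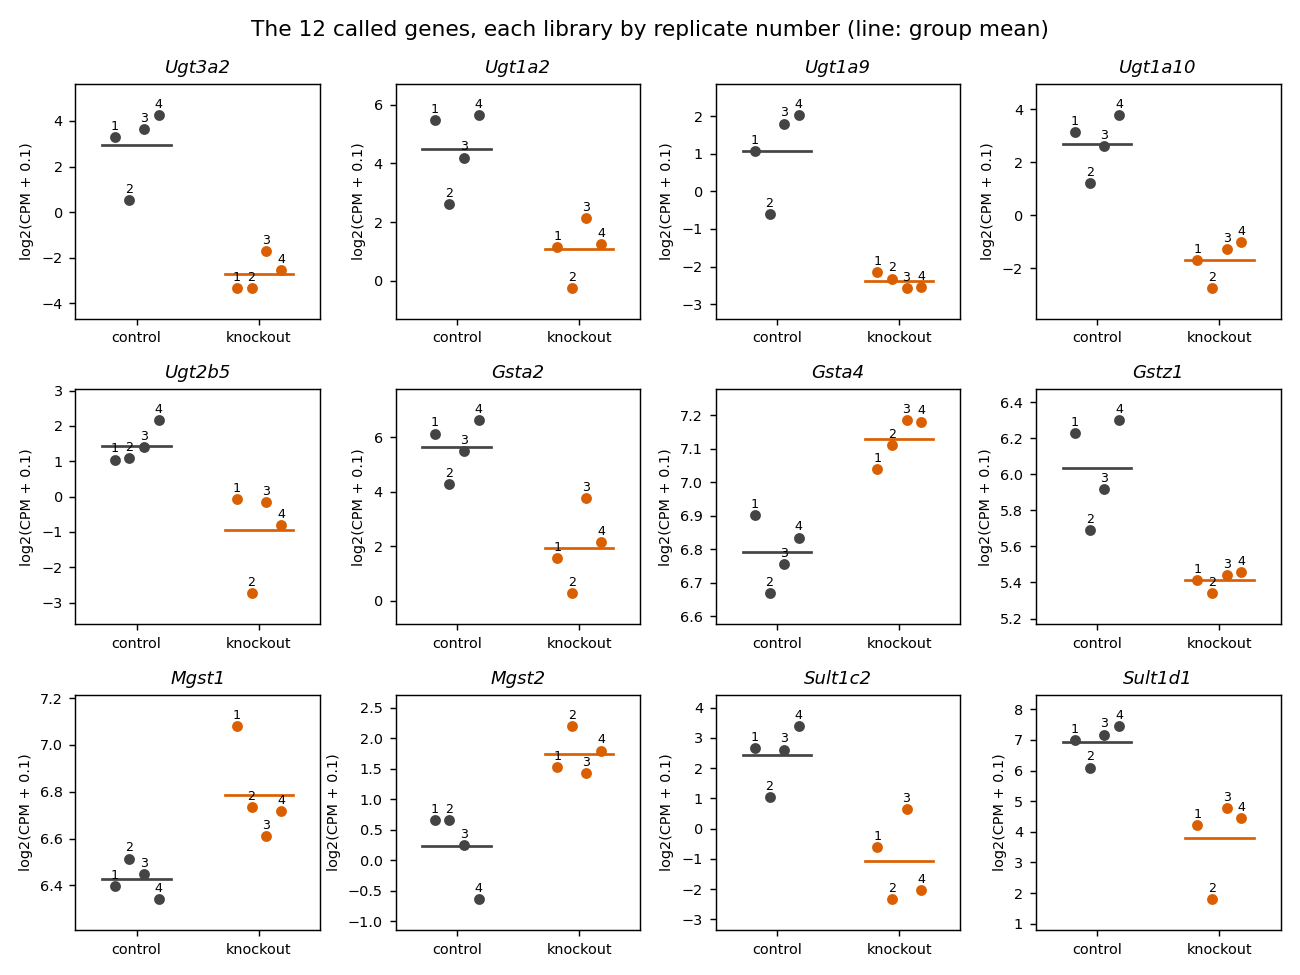
The 12 called genes in every library, as log2(CPM + 0.1), with replicate numbers beside the points and a line at the group mean. In each panel all 4 knockouts lie on one side of all 4 controls; control 2 is the lowest control in 8 of the 9 genes that fell.

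Of the 3 sulfotransferase genes, 2 were called lower (66.7%, beside 8.27% of all genes tested). Sult1d1 (chr5:87554645-87569027, minus strand) sulfates catecholamines and related amines, and was after Gsta4 the most abundant called gene per exon length in the controls, at 52.4 RPKM. It had 126, 68.4, 144 and 176 CPM in the controls against 18.4, 3.41, 27.1 and 21.8 CPM in the knockouts. The highest knockout, replicate 3, was less abundant than the lowest control, replicate 2, and the log2 fold change was -2.86 (SE 0.53, edgeR adjusted p = 0.0172). Without control 3 or knockout 1 or 4 the adjusted p was 0.0516 to 0.0607. Sult1c2 had 6.23, 1.95, 6.01 and 10.4 CPM in the controls against 0.549, 0.10, 1.45 and 0.144 CPM in the knockouts. Its groups did not overlap, at a log2 fold change of -3.39 (SE 0.75, edgeR adjusted p = 0.0247). Without control 1, 3 or 4 or knockout 1, 2 or 4 the adjusted p was 0.0614 to 0.0764, and it was 0.0521 with the adrenal covariate. Sult1a1, the general phenol sulfotransferase, had 18.8, 27.7, 35.8 and 17.7 CPM in the controls against 42.3, 29.5, 22.7 and 44.0 CPM in the knockouts. These ranges overlapped, at a log2 fold change of 0.47 (SE 0.27, edgeR adjusted p = 0.245).

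Summed over a family, the levels moved by different amounts. The 15 Ugt genes summed to 103, 33.9, 83.2 and 153 CPM in controls 1 to 4 and to 19.98, 13.1, 37.4 and 21.5 CPM in knockouts 1 to 4. Knockout 3 thus exceeded control 2. The 21 glutathione transferase genes summed to 961, 742, 912 and 998 CPM in the controls against 777, 718, 837 and 774 CPM in the knockouts, and the groups overlapped. The 3 Sult genes summed to 151, 98.1, 186 and 205 CPM in the controls against 61.3, 33.0, 51.2 and 65.9 CPM in the knockouts, with no overlap. The Ugt sum, the glutathione transferase sum and the proximal tubule markers shared an order of libraries. Control 4 was the highest library, control 2 the lowest control, knockout 2 the lowest library and knockout 3 the highest knockout. Summed thick ascending limb, intercalated cell and endothelial markers had this order too, so it was not particular to the proximal tubule. The Sult sum and the principal cell and podocyte markers lacked part of it. Mean thick ascending limb marker level was 642 CPM for controls and 87.6 for knockouts, beside 1285 and 192 for proximal tubule markers. Among the 9 called genes that fell, control 2 was the lowest control in 8 and knockout 2 the lowest knockout in 7. The part of this order in the results was not tested.

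**Figure D4:**
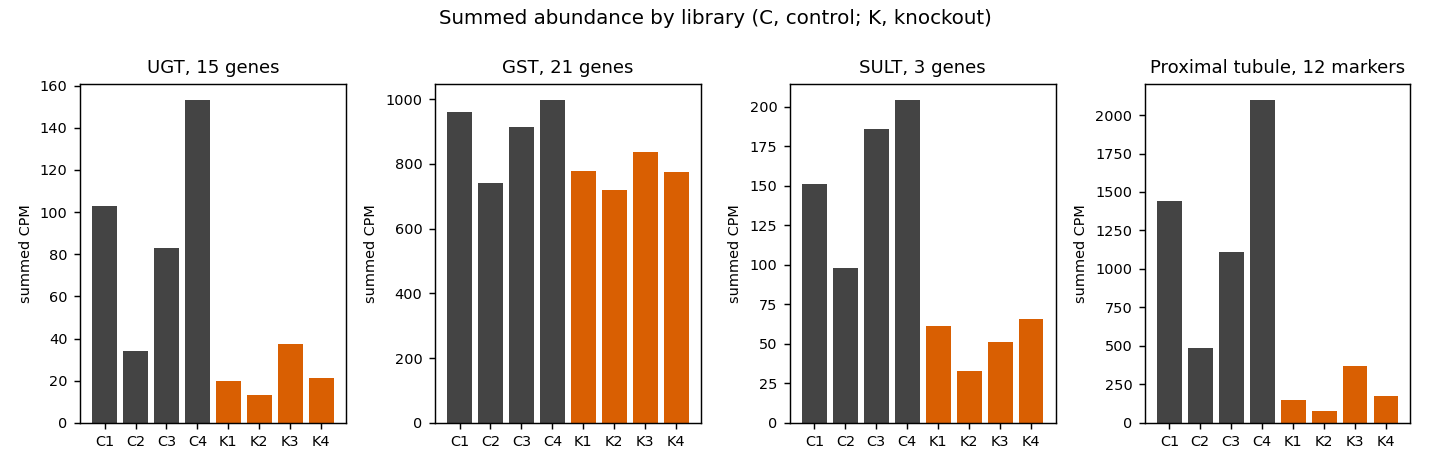
Summed CPM in each library (C, control 1 to 4; K, knockout 1 to 4) for the Ugt, glutathione transferase and Sult genes and for 12 proximal tubule markers. Each panel has its own axis from 0; the Ugt bars span 33.9 to 153 in controls and 13.1 to 37.4 in knockouts, and the glutathione transferase bars overlap.

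A fit of the 5 libraries with high Y-linked transcripts alone (3 controls, 2 knockouts) called 14 of the 39 genes, beside 16.7% of all genes. Of the 12 genes called over all libraries, Ugt2b5 and Mgst1 were lost in it (adjusted p = 0.0606 and 0.0516). With the adrenal level as a covariate 10 were called, beside 6.46% of all genes, and Mgst1 and Sult1c2 were the called genes that were lost. Limma-voom with sample weights called 23, beside 44.9%. How many genes passed depended strongly on single libraries. Without knockout 4 only Ugt1a9 and Ugt1a10 remained called, beside 0.819% of all genes, while 24 were called without control 2, beside 37.4%. Without both control 2 and knockout 3, a choice made with earlier results of these data known, 27 were called, beside 42.7%.

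The genes around these enzymes were read from 5 lists. Among 24 other genes of the 3 families, 20 had a count in some library and 11 were tested. Of those tested, 27.3% were called, beside 14.9% of all genes tested. Sult1b1 was lower, and Sult5a1 and Sult1e1 were higher. Sult1b1, a thyroid hormone sulfotransferase, fell by 1.67 on the log2 scale (SE 0.28, edgeR adjusted p = 0.0139), from 2.74 ± 0.794 to 0.851 ± 0.218 CPM (SD, n = 4 each). Sult1e1, the estrogen sulfotransferase, had 0.696, 1.35, 0.605 and 0.227 CPM in the controls against 2.79, 5.87, 2.53 and 5.14 CPM in the knockouts, a log2 fold change of 2.5 (SE 0.48, edgeR adjusted p = 0.0188). Sult5a1 rose from 7.51 ± 1.90 to 16.6 ± 2.91 CPM (SD, n = 4 each), by 1.14 on the log2 scale (SE 0.20, edgeR adjusted p = 0.0149). Without knockout 4 the adjusted p of Sult1b1 and of Sult5a1 was 0.0566, and that of Sult1e1 was 0.0513 to 0.0652 without control 1 or 3 or knockout 2 or 4. Ptges, a microsomal prostaglandin E synthase, was not called (log2 fold change -1.11, adjusted p = 0.0516). The median of the list was -0.06.

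With a median log2 fold change of -0.70, genes that supply the donors of conjugation were called higher in 0 of 15 cases. They were called lower in 8 (53.3%, beside 8.27% of all genes tested). On the sulfate side they belonged to uptake, activation and clearance of the used donor. Slc13a1, the sodium-sulfate cotransporter of the brush border, fell by 3.18 on the log2 scale, which also holds for the values that follow (SE 0.56, edgeR adjusted p = 0.0153). Papss2, which makes PAPS, fell by 1.09 (SE 0.20, edgeR adjusted p = 0.0159), while Papss1 had -0.31 (adjusted p = 0.0958). Bpnt1, which clears the spent donor, fell by 1.53 (SE 0.30, edgeR adjusted p = 0.0192). On the glutathione side Gsr, glutathione reductase, fell by 0.72 (SE 0.13, edgeR adjusted p = 0.0172), and Gclm, Gss and Cth, which act in glutathione and cysteine synthesis, were also called lower. The remaining called gene was the sulfate transporter Slc26a1. Ugdh, the enzyme that makes UDP-glucuronic acid, had a log2 fold change of 0.08 (adjusted p = 0.314). The call of Slc13a1 and that of Papss2 were lost without knockout 4 (adjusted p = 0.0530 and 0.0566), and those of Gsr and Bpnt1 without control 1 or 3 or knockout 2 or 4 (0.0513 to 0.0713), Bpnt1 also without knockout 1. For Gss and Cth the same removals as for Bpnt1 gave 0.0510 to 0.0716, and for Gclm and Slc26a1 these and control 4 gave 0.0515 to 0.0784.

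Genes that process glutathione conjugates were called lower in 5 of 8 cases (62.5%, beside 8.27% of all genes tested). They were called higher in 0, with a median of -1.59. Nat8, which acetylates cysteine conjugates in the last step to mercapturic acids, had 12.2, 3.62, 9.16 and 15.6 CPM in the controls against 0.338, 0.0502, 0.346 and 0.216 CPM in the knockouts. The groups did not overlap, at a log2 fold change of -5.34 (SE 0.57, edgeR adjusted p = 0.00497), and the call held in each of the 19 settings. Ggt1, the brush border enzyme that removes glutamate from glutathione conjugates, fell by 2.88 on the log2 scale (SE 0.63, edgeR adjusted p = 0.0238), and Anpep, an aminopeptidase of the same membrane, fell by 2.37 (SE 0.39, edgeR adjusted p = 0.0132). Acy3, a deacetylase of mercapturic acids, fell by 1.06 (SE 0.26, edgeR adjusted p = 0.0300), and Acy1 was the fifth. Dpep1, the brush border dipeptidase, was not called (log2 fold change -0.39, adjusted p = 0.310). Without knockout 4 the adjusted p of Anpep was 0.0566. Those of Ggt1, Acy3 and Acy1 were 0.0506 to 0.108 without control 1, 3 or 4 or knockout 1, 2 or 4.

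Of 10 genes of the NRF2 pathway, the oxidant response that drives many Gst genes, edgeR called 0, beside 14.9% of all genes tested. An unadjusted p under 0.05 was found in 0 of the 10, beside 6489 of the 18485 genes tested. DESeq2 called 0 of the 10 and limma-voom 1, while limma-voom called 44.9% of all genes. The median log2 fold change of the 10 was -0.13, and Txnrd1, thioredoxin reductase, had -0.19 (adjusted p = 0.221). Of 13 tested nuclear and xenobiotic receptors and related factors, 2 were called, both lower (15.4%, beside 14.9% of all genes tested). The median was -0.01. Hnf4a, a nuclear receptor of the proximal tubule, had 109.8, 63.6, 122 and 163 CPM in the controls against 29.6, 3.31, 35.2 and 27.4 CPM in the knockouts, at a log2 fold change of -2.26 (SE 0.57, edgeR adjusted p = 0.0336). Ppara, the fatty acid receptor, fell by 1.49 on the log2 scale (SE 0.43, edgeR adjusted p = 0.0473). In both the groups did not overlap. Rxra, a partner of many nuclear receptors, had a log2 fold change of -0.01 and was not called (adjusted p = 0.948). Without control 1, 3 or 4 or knockout 1 or 4 neither Hnf4a nor Ppara was called, nor was Ppara without knockout 2 (adjusted p from 0.0735 to 0.127), and with the Y-linked or the adrenal covariate 0 genes of the list were called. In the libraries with high Y-linked transcripts alone the Hnf4a log2 fold change had an adjusted p of 0.0670 and the Ppara log2 fold change one of 0.0566.

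**Figure D5:**
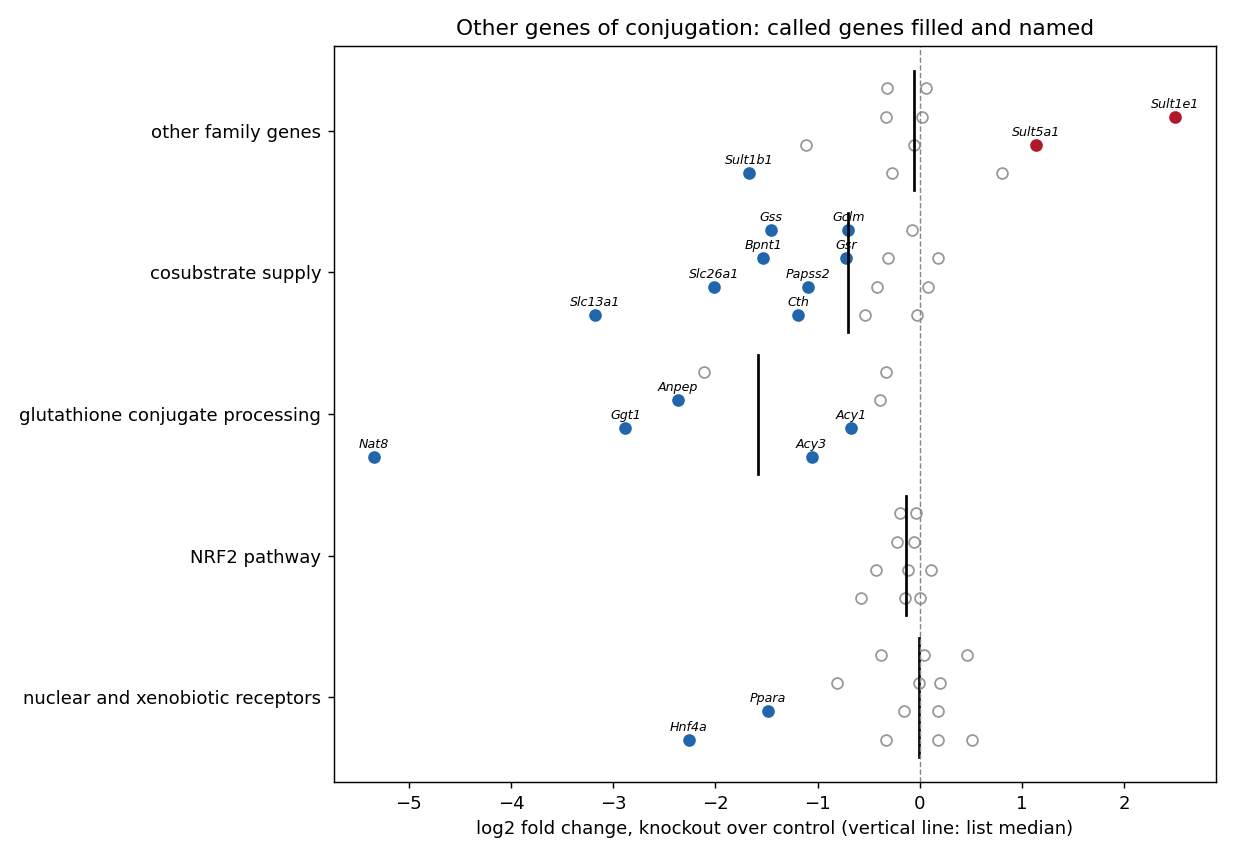
Log2 fold change, knockout over control, of each tested gene in 5 lists of genes around the conjugating enzymes. Called genes are filled and named, open points are not called, and the black line is the median of the list, which runs from -1.59 for glutathione conjugate processing to -0.01 for the nuclear and xenobiotic receptors.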

How the data were processed

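Messenger RNA of 8 mouse kidneys, 4 controls and 4 conditional Kdm1a knockouts, was measured from frozen tissue with a Qiagen RNeasy extraction, oligo-dT capture and NEBNext Ultra libraries, per the labels' protocols. The deposited tables hold raw counts of reads per gene, as whole numbers, and the submitters' processing notes name Trimmomatic 0.36, STAR 2.5.2b, featureCounts of Subread 1.5.2, DESeq2 and the build GRCm38. Whether counting used strand, and how reads that match several genes were treated, is not given in the sources used here, so counts of paralogs and of overlapping genes are uncertain.

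The 49315 gene identifiers of the tables were named through GENCODE M21 (49056 had a symbol), and 0 rows named no gene. Genes were kept with filterByExpr and scaled with TMM, and knockouts were compared with controls in edgeR 4.0.16 (R 4.3.3; quasi-likelihood test, genotype as the only term), with Benjamini-Hochberg adjustment over all 18485 genes tested. Where no other tool is named, an adjusted p comes from this fit, and an adjusted p under 0.05 is a call. A standard error is the log2 fold change over the square root of F. RPKM is CPM per 1000 exon bases of the deposited length. These steps were also run on simulated counts with known log2 fold changes of 1.5 and 3 in either direction. Of the changed genes 96% to 100% were called, with 6 false calls. The simulation gave all genes the same dispersion and no differences between libraries of a group beyond it. It therefore does not measure how firm the calls are in these kidneys.

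The members, the 5 lists of neighbouring genes and the marker lists were chosen with earlier results of these data known. Values of every library are given for called genes and for the 3 genes with the highest mean RPKM in each family. From each list, up to 4 called genes with the smallest adjusted p and 1 gene that was not called are named, most of them by the fold change alone. Some items of the lists and motifs are not reported here. Names beyond that rule (Gclm, Gss, Cth, Slc26a1, Acy1, Ugdh, and the other members) were given for completeness. The alternatives were DESeq2 size factors, DESeq2 1.42.0, limma-voom with sample weights (limma 3.58.1), the replicate block, no low-count filter, a minimum mean of 1 CPM, a Y-linked and an adrenal covariate, the libraries with high Y-linked transcripts, the tables per library, each library left out, and both control 2 and knockout 3 left out. In the comparisons with 1 library left out, all 8 removals were run.

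Beside the lists in the report, 3 of 4 thick ascending limb, 1 of 3 distal convoluted tubule, 0 of 3 principal cell, 0 of 4 intercalated cell, 2 of 5 podocyte and 1 of 5 endothelial markers tested were called, all lower. Of the adrenal, ovary and germline, adipose, red blood cell and Y-linked markers, 0 of 10, 0 of 3, 0 of 2, 0 of 3 and 0 of 4 were called by edgeR, with 6, 0, 2, 0 and 0 at an unadjusted p under 0.05.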

Additional observations from a re-analysis of the deposited data

Results flagged for a closer look

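Among 78 groups of 4 libraries (39 genes in 2 genotypes), 2 held a library far from the other 3 by Dixon's criterion, which is 2.6%, while chance gives about 1 in 20 (5%). Ugt8a had 13.9 CPM in knockout 3 and 4.94, 5.27 and 5.65 CPM in the other knockouts. Ugt1a6a had 2.28 CPM in knockout 1 and 1.40 to 1.46 CPM in the other knockouts. Neither gene was called in the comparison of genotypes. Knockout 3 is also the knockout with the highest summed level of proximal tubule markers (369 CPM), and knockout 1 the one with the highest summed level of adrenal markers (2770 CPM). Whether these levels have a part in either value was not tested.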

How the results depend on the processing

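The 12 called genes gave 228 fits in 19 settings, of which 180 kept the call and 48 lost it. Of the 12, 9 were called in all 11 settings that did not leave out a single library. Of the 23 tested genes that were not called, 13 were called in some setting. The share of all genes that gained a call in some setting was not counted. Limma-voom called 44.9% of all genes tested, and the fit without control 2 called 37.4%. Ugt1a6a, Ugt2b37, Ugt8a, Gstt2, Mgst3, Gsto1 and Gstk1 were called lower by both DESeq2 and limma-voom. The median log2 fold change of the tested genes stayed between -0.78 and -0.42.

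Counts of calls moved more, and the cause was not tested. The number of all genes called was 2751 as reported, 4506 with DESeq2, 8302 with limma-voom, 1195 with the adrenal covariate, 7903 without both control 2 and knockout 3, and 153 to 7084 with 1 library left out. Conjugating enzymes: 12 called, 19 with DESeq2, 23 with limma-voom, 27 without both, and 2 to 24 with 1 left out. Ugt genes: 5, then 8, 9 and 10 in the same settings, and 2 to 9. Glutathione transferases: 5, then 9, 12 and 15, and 0 to 13. Sult genes: 2, with 1 under the adrenal covariate, and 0 to 2. The 5 lists together: 18, with 30 by limma-voom, 31 without both, and 1 to 28. Other family genes: 3, with 5 by limma-voom and 5 without both, and 0 to 4. Cosubstrate supply: 8, and 0 to 10. Glutathione conjugate processing: 5, with 3 under the Y-linked and 3 under the adrenal covariate, 8 without both, and 1 to 8. NRF2 pathway: 0, with 1 by limma-voom, 2 without both, and 0 to 1. Receptors: 2, with 6 by limma-voom, 0 under each covariate, 5 without both, and 0 to 5. Kdm1a was at -0.28 (edgeR adjusted p = 0.0562) in the libraries with high Y-linked transcripts, and at -0.29 to -0.24 with 1 library left out.

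The labels do not say whether the replicate numbers pair the kidneys. The correlations of same-numbered deviations from the group means were -0.108, 0.329, 0.228 and -0.059 over 18485 genes. Those of differently numbered kidneys ran from -0.468 to 0.398. The 2 sets overlap, so these values do not decide whether the numbers are pairs. With the replicate block the number of all genes called was 3229, and 18 of the called genes were conjugating enzymes (7 Ugt, 9 glutathione transferase and 2 Sult genes). No chi-square comparison of 2 libraries gave a value per degree of freedom under 11, so none was present more than once. Depth limits Ugt3a1, Ugt1a6b, Ugt2b35 and Gsta1, which had enough counts in too few of the 8 libraries to pass the filter.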
